A study of Homo sapiens with 6 samples.

Results

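The expression table of this series has 27238 named rows. Of these, 57 belong to gene families that write or erase histone methylation, remodel nucleosomes or carry the ARID DNA-binding domain. They were chosen by name alone: symbols starting with KMT2 or KMT5, KDM1 to KDM8, SMARCA to SMARCE, CHD1 to CHD9 or ARID1 to ARID5, without KDM2B, without antisense and other hyphenated names, and without pseudogene names. By family these are 5 KMT2, 3 KMT5 and 17 KDM genes, 9 SMARC genes of the SWI/SNF complexes, 2 ISWI ATPases, 2 other SMARCA genes, 9 CHD and 10 ARID genes. The cells were QBC-939, a human line labelled as cholangiocarcinoma, a cancer of the bile duct. The control group was 3 libraries of cells given a scrambled shRNA and the other group 3 libraries of cells given an shRNA against Bmi1, both for 48 h, with each library described as an independent transfection. Whether these came from separate cultures is not stated, so p-values measure the spread between these libraries. No genetic change or further agent is named in the labels, a single line was used, and the labels do not say whether cells that took up an shRNA were selected.

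BMI1 is a subunit of Polycomb repressive complex 1, which keeps developmental genes silent. The families described here include the classical counterweight to Polycomb. KMT2 enzymes, the Trithorax group of methyltransferases, place methyl groups on histone H3 lysine 4 (H3K4) at promoters and enhancers, and KDM6 enzymes remove the H3K27 methylation that Polycomb repressive complex 2 deposits. SWI/SNF complexes use ATP to slide or evict nucleosomes and oppose Polycomb at many loci, ISWI and CHD remodellers space nucleosomes or act with histone deacetylases, and many of these genes are mutated in cancers, ARID1A among them in bile duct tumours.

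Expression is given in FPKM (a count of sequenced fragments divided by the length of the transcript and by the size of the library), so levels of different genes can be set side by side. The read depth of the libraries is unknown, and low FPKM rest on few reads. The 6 libraries summed to between 332910 and 360371 FPKM, and the first principal component, with 62.8% of the variance, separated the groups. The targeted gene was measured first. BMI1 stood at 6.65, 5.34 and 6.09 FPKM in the control libraries and at 1.49, 1.19 and 2.65 in the Bmi1 shRNA libraries. Every Bmi1 shRNA library was below every control library, with replicate 3 the least reduced. The log2 fold change was -1.37 (limma, adjusted p = 0.00162), and the exact permutation p, two-sided, was 0.1, the lowest available with 3 libraries a group. The epithelial markers KRT8, KRT18, KRT19 and EPCAM were at mean levels from 164 to 840 FPKM in the control group and from 169 to 707 in the Bmi1 shRNA group. KRT7, a defining biliary keratin, was at only 2.74 and 2.80 FPKM. Of markers of other cell types, COL1A1, PDGFRB, PECAM1, VWF, APOA1, CYP3A4 and PLIN1 were all under 0.5 FPKM in every library. The hepatocyte gene TTR averaged 6.11 and 18.7 FPKM, and the myeloid genes CD68 and LYZ averaged 11.5 and 1470 FPKM in the controls against 7.53 and 1530. ALB, COL1A2, COL3A1, DCN, PTPRC, CDH5, ADIPOQ, LEP and FABP4 were also looked up. None had a row under a name that occurs once, so these were not analysed here. In bulk RNA fewer cells of a type and less RNA per cell cannot be told apart, and the part of these marker levels in the results was not tested.

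A gene was tested where its mean over the 6 libraries reached 1 FPKM, and called where limma on log2(FPKM + 1) gave a Benjamini-Hochberg adjusted p under 0.05 over all 11016 tested rows. Of the 57 genes, 44 were tested. With Bmi1 shRNA 6 rose and 19 fell, and 19 were not called. The largest rise was that of the ISWI ATPase SMARCA1, and the largest falls were those of the H3K4 methyltransferases KMT2D and KMT2B. The count has to be read against a table in which 57.1% of all tested rows were called. The share called among the 44 was 56.8%, which is near that background. By direction, 13.6% of the 44 were called higher, against 28.6% of all tested rows, and 43.2% were called lower, against 28.5%. The median log2 fold change of the 44 was -0.21, against -0.017 over all tested rows. The 3 libraries of one group lay wholly above or below the other in 29 of the 44, a share of 65.9% against 65.4% of all tested rows, with 7 higher and 22 lower under Bmi1 shRNA. CHD1, KDM5A and ARID4B averaged under 1 FPKM in the controls and passed the filter through the Bmi1 shRNA libraries, and CHD8, KDM4B and KMT2A passed it through the controls, so these counts describe the tested genes and not the families.

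These directions moved with the base composition of the transcripts. The 6 genes called higher had a median GC content of 39.6% in their longest coding transcript (range 36.0% to 44.8%), and the 19 called lower one of 54.9% (42.9% to 63.5%). Of the 7 tested genes under 42% GC, 4 were called higher and 0 lower. Of the 24 at 50% or more, 0 were called higher and 17 lower. Over the 44 genes, log2 fold change and GC content had a Spearman correlation of -0.573. Over all 10225 tested rows with a known transcript it was -0.473, so the relation is not particular to chromatin genes. The 44 had a median GC content of 50.8%, against 50.4% over the tested rows. Their transcripts were longer, with a median of 6021 bases against 2920. Log2 fold change and transcript length had a Spearman correlation of -0.0875 over the 44 and of -0.274 over the 10225 rows. These are correlations across genes, which share the same 6 libraries. Whether these relations arose in the cells or in library preparation was not tested. The fit was therefore repeated with the trend with GC content and length taken out of every library over the whole table, in 2 ways. The first removal took GC content and length from the longest coding transcript of each gene. It called 19.1% of all rows higher and 20.5% lower, and of the 44 genes 8 higher and 5 lower, with a median log2 fold change of -0.017. The second removal took them as medians over a gene's transcripts. It called 21.9% of all rows higher and 24.9% lower, 46.8% in all, and of the 44 genes 3 higher and 16 lower, with a median of -0.19, so the lower side of the 44 outweighed the higher in the second removal and not in the first. Either removal takes out real changes that follow base composition or length together with technical ones.

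**Figure D1:**
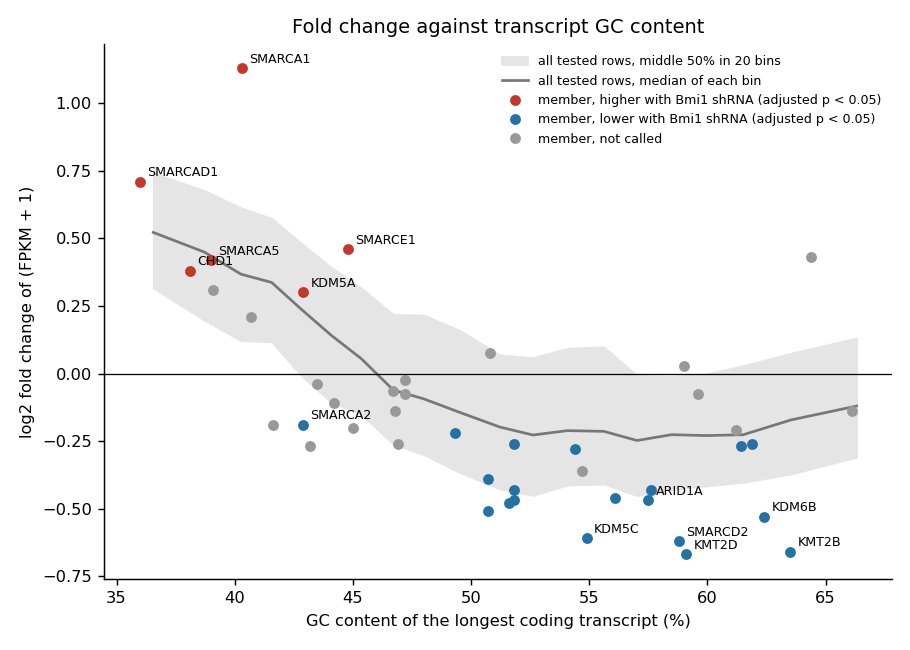
Log2 fold change of (FPKM + 1), Bmi1 shRNA over control, against the GC content of the longest coding transcript in percent, for the 44 tested chromatin genes (points) and for all tested rows with a transcript (line, median of each of 20 bins; band, middle 50%). The genes called higher lie between 36.0% and 44.8% GC and most genes called lower above 50%, in the direction of the slope of the whole table. Among the called genes, SMARCA1 and SMARCE1 lie above the band. KMT2D, KMT2B, SMARCD2, KDM5C, KDM6B, KDM3B and SMARCA2 are among those below it.

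The KMT2 family holds the catalytic subunits of the MLL complexes, and KMT2B and KMT2D fell. KMT2D (chr12:49018975-49059774, minus strand, GRCh38), which methylates H3K4 at enhancers, was at 4.88, 5.62 and 4.92 FPKM in the control libraries and at 3.02, 2.26 and 3.35 in the Bmi1 shRNA libraries. The groups did not overlap, and the mean of the Bmi1 shRNA group was 1.79-fold lower. Its log2 fold change was -0.67 ± 0.118 (SE; limma, adjusted p = 0.00373). KMT2B (chr19:35718019-35738878, plus strand), the MLL enzyme that acts at promoters of developmental genes, gave 5.35, 6.0 and 6.02 FPKM against 3.26, 2.75 and 3.94. It too was lower in every Bmi1 shRNA library, 1.75-fold in the mean, at a log2 fold change of -0.66 ± 0.110 (SE; limma, adjusted p = 0.00298). Exons of KMT2D overlap those of DDN-AS1 by 223 bases and exons of KMT2B those of IGFLR1 by 78 bases on the other strand, and the strandedness of the authors' counting is unknown. The other 3 members were lower in the mean and not called. KMT2C, the closest relative of KMT2D, averaged 1.31 and 1.01 FPKM at an adjusted p of 0.107 in limma, which became 0.0486 without Bmi1 shRNA replicate 3. KMT2A averaged 1.38 and 0.980 FPKM, and its adjusted p of 0.109 became 0.0214 without control replicate 3, the lowest control library at 1.0 FPKM. KMT2E, whose SET domain is not known to methylate H3K4, averaged 2.76 and 2.13 FPKM (limma, adjusted p = 0.113). Summed over the 5 genes the family lay between 15.6 and 17.8 FPKM in control libraries and between 8.27 and 12 in Bmi1 shRNA libraries. KMT2B was called lower in both removals of the GC and length trend, at -0.23 and -0.51. KMT2D was not called in the first, at -0.20, and was called lower in the second, at -0.58, which also called KMT2C (-0.41) and KMT2E (-0.58) lower, so 1 of the 5 genes was called in the first and 4 in the second.

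In the KMT5 family, which methylates histone H4K20, 1 of 3 genes was called. KMT5A, the monomethyltransferase needed for chromosome compaction and the S phase, was at 9.84, 10.7 and 10.4 FPKM in the controls and at 6.50, 6.85 and 8.33 with Bmi1 shRNA. All 3 Bmi1 shRNA libraries were lower, 1.43-fold in the mean (limma, log2 fold change -0.47 ± 0.0934 SE, adjusted p = 0.00603). KMT5A was not called in the first removal, at -0.23, and was called lower in the second, at -0.35. Reads of the pseudogene KMT5AP1 (0.860 and 0.709 FPKM) may be shared with it. KMT5B and KMT5C, which add the further methyl groups, were not called at 0.21 and -0.14. KMT5B passed, at an adjusted p of 0.0201 in limma, without Bmi1 shRNA replicate 2.

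**Figure D2:**
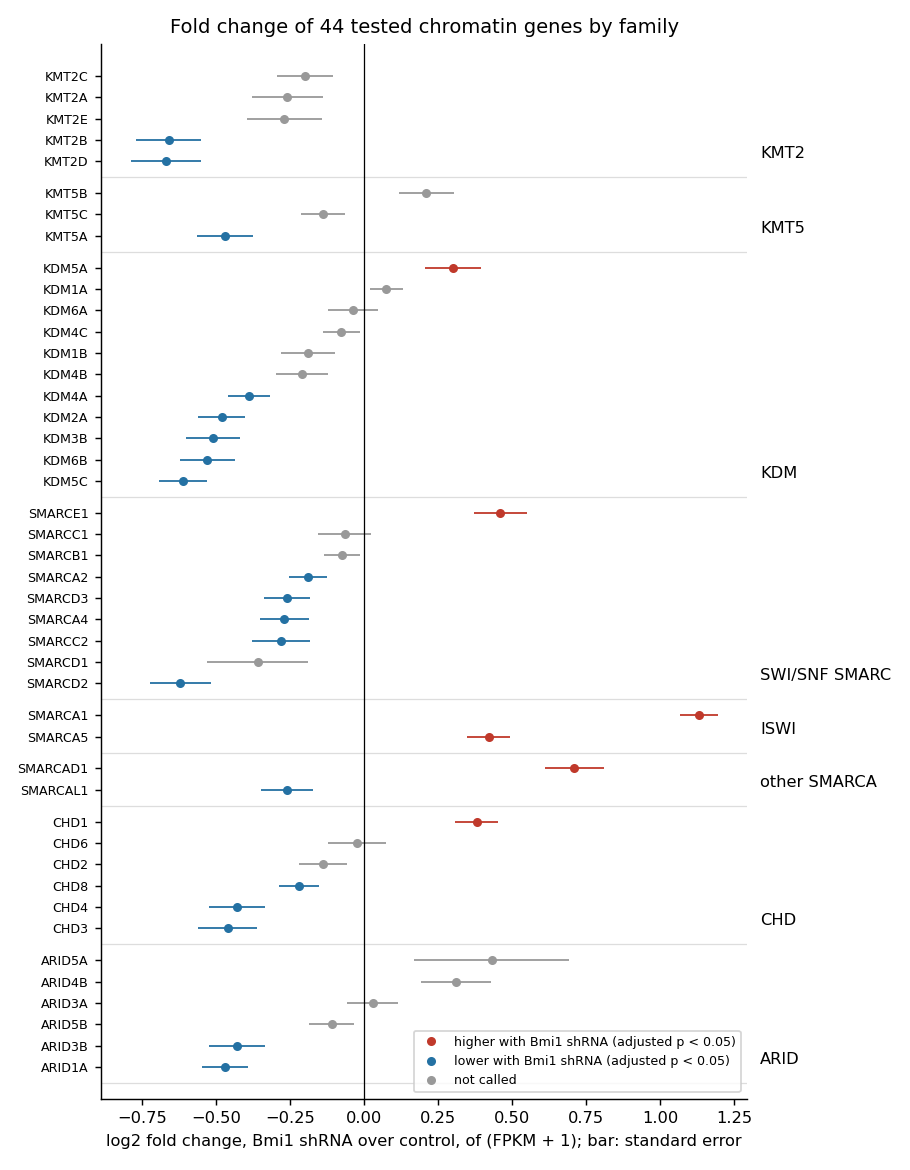
Log2 fold change of (FPKM + 1), Bmi1 shRNA over control, with its standard error, for the 44 tested genes by family; 3 libraries per group. KMT2 members all lie below 0, both ISWI genes lie above 0, and the other families hold genes on both sides.

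Among the histone lysine demethylases 1 rose and 5 fell of 11 tested. KDM5C (chrX:53191321-53225422, minus strand), an eraser of H3K4 methylation and the most abundant demethylase in the controls, was at 23.2, 26.1 and 24.0 FPKM there and at 15.0, 14.6 and 17.3 with Bmi1 shRNA. The groups were far apart next to their spread, with a 1.56-fold lower mean and a log2 fold change of -0.61 ± 0.0811 (SE; limma, adjusted p = 0.00134). Its paralog KDM5A, with the same substrate, moved the other way at a far lower level. KDM5A was at 0.990, 0.934 and 0.978 FPKM in the controls and 1.28, 1.26 and 1.76 with Bmi1 shRNA. Replicate 3 was highest and the groups did not overlap (limma, log2 fold change 0.30 ± 0.0938 SE, adjusted p = 0.0325). This call was lost when any control library was left out (adjusted p up to 0.0867), with libraries scaled to one total (0.0623) and after quantile normalization (0.0659). KDM5C was called lower in both removals (-0.21 and -0.43). KDM5A was called higher in the first (0.27), and in the second it turned to -0.077 and was not called.

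KDM6B (chr17:7839904-7854796, plus strand), an H3K27 demethylase induced in inflammation and differentiation, was at 3.82, 5.03 and 4.48 FPKM in the controls and at 2.62, 2.75 and 2.91 with Bmi1 shRNA. It was lower in every Bmi1 shRNA library, 1.61-fold in the mean (limma, log2 fold change -0.53 ± 0.0930 SE, adjusted p = 0.00371). The other H3K27 demethylase, the X-linked KDM6A, averaged 3.06 and 2.97 FPKM with overlapping groups. KDM3B (chr5:138352596-138437028, plus strand), which acts on H3K9, was at 8.21, 8.86 and 8.23 FPKM against 5.63, 4.93 and 6.42. Again no library of one group reached the other, and the mean was 1.49-fold lower (limma, log2 fold change -0.51 ± 0.0919 SE, adjusted p = 0.00414). KDM2A, an H3K36 demethylase recruited to CpG islands, fell from 8.68 ± 0.618 to 5.96 ± 0.498 FPKM (SD, 3 libraries each) and KDM4A, an H3K9 and H3K36 demethylase, from 20.9 ± 0.634 to 15.8 ± 1.31. In the first removal none of KDM6B, KDM3B, KDM2A and KDM4A was called, at log2 fold changes between -0.15 and -0.10. In the second all 4 were called lower, at -0.36, -0.62, -0.39 and -0.33. KDM1A, the LSD1 enzyme of the CoREST complex, was level at 12.8 and 13.6 FPKM. It was called higher in both removals, at 0.29 and 0.35. KDM1B, KDM4B and KDM4C were also not called, although KDM1B was lower in all 3 Bmi1 shRNA libraries (limma, adjusted p = 0.115) and KDM4B passed without control replicate 1 (adjusted p = 0.0436).

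**Figure D3:**
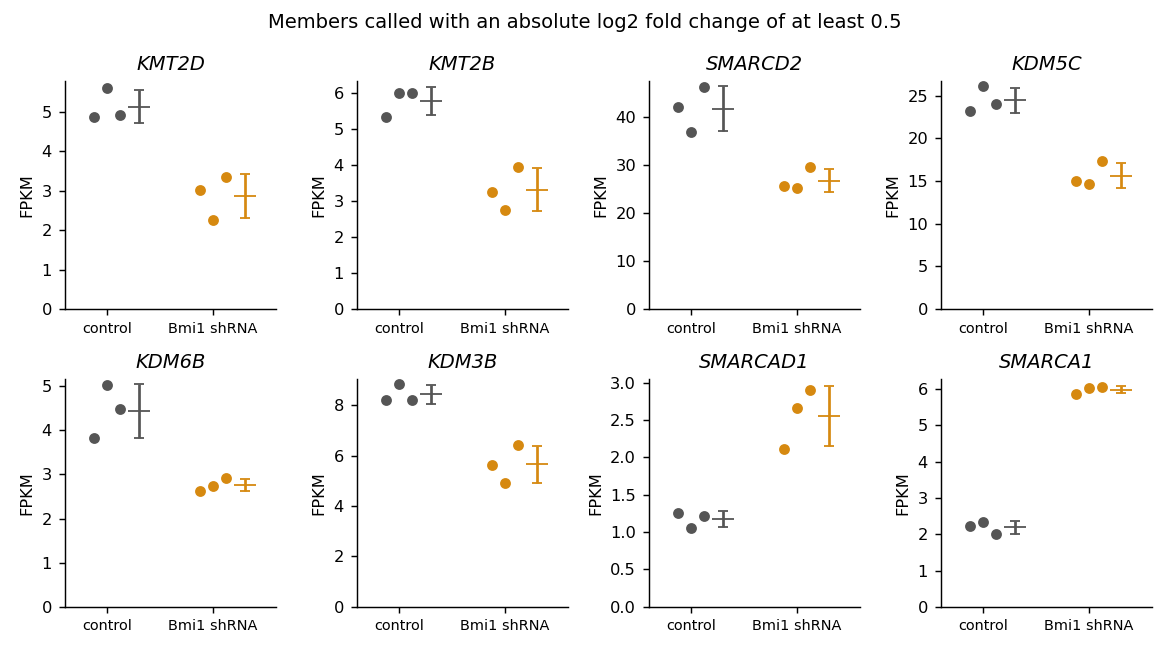
FPKM in each library (points, linear axes from 0) with the mean and SD of 3 libraries, for the 8 called genes with a log2 fold change of 0.5 or more in size. In each of the 8 the control and Bmi1 shRNA libraries are separate, 6 genes lower and SMARCA1 and SMARCAD1 higher with Bmi1 shRNA.

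The 9 SMARC genes of SWI/SNF were all tested, and 1 rose and 5 fell. SMARCD2 (chr17:63832081-63843065, minus strand), an accessory subunit and the highest of the 57 genes, was at 42.1, 37.0 and 46.3 FPKM in the controls and at 25.6, 25.2 and 29.6 with Bmi1 shRNA. The groups were separate, with a 1.56-fold lower mean and a log2 fold change of -0.62 ± 0.102 (SE; limma, adjusted p = 0.00286), and it was called lower in both removals as well (-0.36 and -0.44). The mutually exclusive ATPases of the complex both fell. SMARCA4 (BRG1) was at 5.16, 6.14 and 5.84 FPKM against 4.22, 4.47 and 4.95, and SMARCA2 (BRM) at 1.25, 1.43 and 1.32 against 1.02, 1.01 and 1.10. Their log2 fold changes were -0.27 and -0.19, at adjusted p of 0.0283 and 0.0398 in limma. Neither pair of groups overlapped, but both calls were thin: SMARCA4 missed the threshold when control replicate 2, control replicate 3, Bmi1 shRNA replicate 1 or Bmi1 shRNA replicate 2 was left out, and SMARCA2 without any library but Bmi1 shRNA replicate 3 (adjusted p up to 0.0895 and 0.119). SMARCA4, at 61.4% GC, moved to 0.12 and 0.11 in the first and second removal and was not called, while SMARCA2, at 42.9% GC, was called lower in both, at -0.25 and -0.42.

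Of the scaffold pair, SMARCC2 fell from 7.89 ± 0.226 to 6.37 ± 0.979 FPKM (SD, 3 libraries each), and SMARCC1 was not called at 11.6 and 11.1. SMARCD3, the muscle and heart paralog of SMARCD2, fell from 1.43 ± 0.192 to 1.03 ± 0.0489 FPKM, and SMARCD1, with control libraries from 6.22 to 9.10, overlapped between the groups and passed only without Bmi1 shRNA replicate 3 (limma, adjusted p = 0.0471). The SMARCC2 call held when Bmi1 shRNA replicate 3 was left out and was lost without each of the other 5 libraries (adjusted p up to 0.136). That of SMARCD3 likewise held only without control replicate 1 (up to 0.0778 otherwise). Neither was called in either removal: SMARCC2 was at 0.048 and -0.16 and SMARCD3 at -0.13 and -0.08. SMARCB1, the core subunit lost in rhabdoid tumours, was level at 4.43 and 4.15 FPKM with overlapping groups. The 1 subunit that rose was SMARCE1, the HMG-box protein of BAF complexes, from 1.72, 1.65 and 1.56 FPKM to 2.24, 2.99 and 2.76. All Bmi1 shRNA libraries were above all controls, 1.62-fold in the mean (limma, log2 fold change 0.46 ± 0.0907 SE, adjusted p = 0.00549). It was called higher in the first removal, at 0.52, and not called in the second, at 0.21. SMARCE1 has pseudogenes with which it may share reads. Their rows were at 0.153 FPKM or less in every library.

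The ISWI pair gave the clearest rise. SMARCA1 (SNF2L; chrX:129446501-129523500, minus strand), the ATPase of the NURF remodeller, was at 2.24, 2.35 and 2.0 FPKM in the controls and at 5.87, 6.02 and 6.06 with Bmi1 shRNA. The 2 groups lay 2.72-fold apart in the mean, with SDs of 0.182 and 0.0967 FPKM. Of the 44 genes it alone changed by more than 1 in log2(FPKM + 1) (limma, log2 fold change 1.13 ± 0.0641 SE, adjusted p = 0.000228). On the FPKM scale SMARCAD1 also rose 2.18-fold in the mean. SMARCA5 (SNF2H; chr4:143513463-143557486, plus strand), the ATPase of the ACF, CHRAC and other ISWI complexes, was at 5.19, 4.66 and 4.65 FPKM against 6.34, 6.69 and 7.36. It was higher in every Bmi1 shRNA library, 1.41-fold in the mean (limma, log2 fold change 0.42 ± 0.0741 SE, adjusted p = 0.00381). Exons of SMARCA5 overlap those of the antisense gene SMARCA5-AS1 by 630 bases, whose own row averaged 3.25 and 3.37 FPKM and was not called. SMARCA1 was called higher in both removals, at 0.81 and 0.89. SMARCA5 was not called in the first, at 0.14, and was called lower in the second, at -0.27, so its direction turned there. Among the controls SMARCA5 was 1.98 to 2.33 times SMARCA1 in the same library. With Bmi1 shRNA it was 1.08 to 1.21 times, so the libraries went from an excess of SMARCA5 to near equal levels.

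The RefSeq promoter table (GRCh38.p14) held 34 of the 57 genes, over a window of 250 bases before to 50 after the start. Their promoters are GC-rich: the median GC content was 65.5%, against 57.7% over all 22114 promoters, with a median of 28.5 CpG dinucleotides against 12. A GC box, GGGCGG on either strand, was found in 25 of the 34 (73.5%) and in 43.0% of all promoters. A TATAAA match on either strand was found in 0 of the 34 and in 12.7% of all. Genes called higher (5 with a promoter) and lower (9) had medians of 60.0% and 65.0% GC and of 25 and 24 CpG, which are closer to each other than the GC contents of their transcripts, 39.6% and 54.9%. GC boxes were in 4 of the 5 and 6 of the 9. For the ISWI pair and for KMT2B and KDM5C, which kept their call under either removal of the GC and length trend, the 250 bases before the start are given 5′ to 3′ on the gene's strand, with GC boxes of either strand in capitals.
SMARCA1 (chrX:129523491-129523740, minus strand): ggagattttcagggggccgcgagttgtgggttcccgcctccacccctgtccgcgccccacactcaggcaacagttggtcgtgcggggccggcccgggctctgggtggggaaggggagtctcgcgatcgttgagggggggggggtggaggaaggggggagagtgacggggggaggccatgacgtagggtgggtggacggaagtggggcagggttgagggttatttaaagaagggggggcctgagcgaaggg
SMARCA5 (chr4:143513452-143513701, plus strand): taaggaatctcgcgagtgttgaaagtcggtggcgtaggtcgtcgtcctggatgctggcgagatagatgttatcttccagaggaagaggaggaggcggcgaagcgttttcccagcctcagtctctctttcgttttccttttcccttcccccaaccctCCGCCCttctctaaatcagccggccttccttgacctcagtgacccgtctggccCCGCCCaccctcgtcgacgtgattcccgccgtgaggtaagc
KMT2B (chr19:35717753-35718002, plus strand): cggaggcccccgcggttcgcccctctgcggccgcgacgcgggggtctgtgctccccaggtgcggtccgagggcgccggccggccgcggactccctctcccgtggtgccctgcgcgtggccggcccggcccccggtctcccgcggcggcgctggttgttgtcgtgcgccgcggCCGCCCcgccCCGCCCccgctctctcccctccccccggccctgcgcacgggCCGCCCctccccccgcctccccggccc
KDM5C (chrX:53225208-53225457, minus strand): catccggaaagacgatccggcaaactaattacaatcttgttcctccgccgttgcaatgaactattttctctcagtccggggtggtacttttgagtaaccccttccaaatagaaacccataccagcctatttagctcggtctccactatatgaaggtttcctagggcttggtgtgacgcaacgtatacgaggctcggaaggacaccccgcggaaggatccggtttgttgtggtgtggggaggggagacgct
The SMARCA1 stretch has 68.0% GC and 16 CpG and holds 0 GC boxes, and that of its paralog SMARCA5 has 58.0% GC, 20 CpG and 2 GC boxes. KMT2B, at 84.4% GC with 40 CpG, holds 3 GC boxes, and KDM5C, at 51.2% GC with 15 CpG, holds 0. Boxes were counted and marked without overlap, and in KMT2B a further match that overlaps marked boxes was left in small letters. A match describes the letters in these windows and is not a measured binding site.

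Both remaining SMARCA genes were called, in opposite directions. SMARCAD1 (chr4:94207611-94291292, plus strand), a remodeller that helps restore silent chromatin after replication, was at 1.26, 1.05 and 1.21 FPKM in the controls and at 2.12, 2.66 and 2.90 with Bmi1 shRNA. The Bmi1 shRNA libraries were all above the controls, 2.18-fold in the mean (limma, log2 fold change 0.71 ± 0.0988 SE, adjusted p = 0.00162). With 36.0% GC its transcript is the lowest in GC of the 44, and it was not called in the first removal, at 0.25, and called higher in the second, at 0.29. SMARCAL1, which remodels stalled replication forks, fell from 3.38 ± 0.301 to 2.67 ± 0.293 FPKM (SD, 3 libraries each), at a log2 fold change of -0.26 (limma, adjusted p = 0.0418). That call was lost without any library but Bmi1 shRNA replicate 3, at adjusted p up to 0.124, and it was not called in either removal, at -0.012 and -0.18.

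Of 6 tested CHD remodellers 1 rose and 3 fell. CHD3 and CHD4, the ATPases of the NuRD deacetylase complex, both fell. CHD4 was at 11.4, 13.5 and 12.3 FPKM against 8.64, 8.17 and 10.0, and CHD3 at 11.4, 11.5 and 11.0 against 7.91, 6.81 and 9.17. In both, the groups were separate, with log2 fold changes of -0.43 ± 0.0947 and -0.46 ± 0.0998 (SE; limma, adjusted p = 0.00852 and 0.00816). CHD8, which binds beta-catenin and is known from autism, fell from 1.27 ± 0.0898 to 0.947 ± 0.0867 FPKM, a call lost without any library but Bmi1 shRNA replicate 3 (adjusted p up to 0.0929). CHD1, which reads H3K4 trimethylation through its chromodomains, rose from 0.935, 1.01 and 0.863 FPKM to 1.57, 1.36 and 1.65. Every Bmi1 shRNA library was higher, 1.63-fold in the mean (limma, log2 fold change 0.38 ± 0.0725 SE, adjusted p = 0.00496). In the first removal none of these 4 was called, with CHD3, CHD4, CHD8 and CHD1 at -0.031, -0.055, 0.12 and 0.069. In the second CHD3 was called lower at -0.29, and CHD4, CHD8 and CHD1 were not called at -0.21, -0.0053 and -0.21. CHD2, the closest relative of CHD1, and CHD6 were not called, at -0.14 and -0.024, and CHD2 passed without Bmi1 shRNA replicate 3 (adjusted p = 0.0468).

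The ARID genes share a DNA-binding domain but belong to several complexes, and 2 of 6 tested fell. ARID1A, a large DNA-binding subunit of the canonical BAF complex, was at 2.40, 2.82 and 2.53 FPKM in the controls and at 1.52, 1.48 and 1.76 with Bmi1 shRNA. It was lower in all 3, 1.63-fold in the mean (limma, log2 fold change -0.47 ± 0.0766 SE, adjusted p = 0.00279). It was not called in either removal, at -0.021 and -0.15. Its paralog ARID1B, which takes its place in a separate set of BAF complexes, averaged 0.519 and 0.397 FPKM and was too low to be tested, as was ARID2 of the PBAF complex at 0.643 and 0.826. ARID3B fell from 2.83 ± 0.0915 to 1.86 ± 0.336 FPKM and was not called in either removal (-0.088 and -0.20). ARID3A, ARID4B, ARID5A and ARID5B were not called. The ARID5A mean of the Bmi1 shRNA group rested on replicate 3, at 3.21 FPKM against 1.06 and 1.28 in the other 2 libraries.

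Summed per library, the 57 genes gave 255.5 to 269.5 FPKM in the controls and 197.7 to 235.3 with Bmi1 shRNA. The SWI/SNF genes contributed 81.1 to 87.3 against 59.3 to 70.4 and the demethylases 89.8 to 96.6 against 68.4 to 78.6, sums that lean on SMARCD2, KDM5C and KDM4A. The ISWI sum rose from between 6.65 and 7.43 to between 12.2 and 13.4. The ARID sums overlapped, at 11.9 to 12.9 and 10.0 to 14.2. Bmi1 shRNA replicate 3 was the nearest to the controls in the sum of all 57, as it was in BMI1 itself. In the ISWI sum the same library was the farthest from the controls, at 13.4 FPKM. Without that library 27 of the 44 tested genes were called (61.4%), 6 higher (13.6%) and 21 lower (47.7%). In the same fit 55.6% of all tested rows were called, 27.1% higher and 28.5% lower.

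A set of 13 genes averaged under 1 FPKM and was not tested: ARID1B, ARID2, ARID3C, ARID4A, CHD5, CHD7, CHD9, KDM3A, KDM4D, KDM4F, KDM5B, KDM7A and KDM8. In 5 of them the groups did not overlap. The share among all rows under 1 FPKM was not counted, so this number has no background and describes these genes alone. KDM3A, an H3K9 demethylase induced by hypoxia, was at 0.634, 0.706 and 0.553 FPKM in the controls and at 1.15, 1.35 and 1.31 with Bmi1 shRNA, the reverse of its paralog KDM3B. CHD9 was at 0.260 to 0.334 against 0.572 to 0.608 FPKM, ARID4A at 0.258 to 0.390 against 0.487 to 0.732, and KDM7A at 0.197 to 0.261 against 0.369 to 0.397. CHD7, the gene of CHARGE syndrome, was lower, at 0.998 to 1.03 against 0.556 to 0.711. The 4 that were higher have 37.5% (ARID4A) to 44.8% (KDM3A) GC, and CHD7 has 47.5%. KDM4F, ARID3C and CHD5 were under 0.13 FPKM in every library.

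Over the 25 called genes, the fit on the values as deposited and the 2 removals compare as follows. Of the 6 genes called higher, 3 were called higher in the first removal and 2 in the second. Of the 19 called lower, 4 were called lower in the first and 11 in the second. Called the same way in all 3 fits were SMARCA1, higher, and KDM5C, KMT2B, SMARCA2 and SMARCD2, lower. The share of all called rows of the table that kept a call was not counted. These numbers therefore have no background and describe these genes alone. Of the 19 genes not called on the deposited values, the first removal called 5 higher and 1 lower: ARID3A (0.44), SMARCB1 (0.31), KDM1A (0.29), CHD6 (0.24) and KDM4B (0.19) were higher and KDM1B (-0.45) lower. The second removal called 1 of the 19 higher, KDM1A, and 4 lower: KMT2E (-0.58), KMT2C (-0.41), CHD2 (-0.34) and KDM4C (-0.25). KDM4B also took the opposite call, lower at -0.29, after quantile normalization (limma, adjusted p = 0.0226). Which of the 2 removals is nearer to the cells was not tested.

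**Figure D4:**
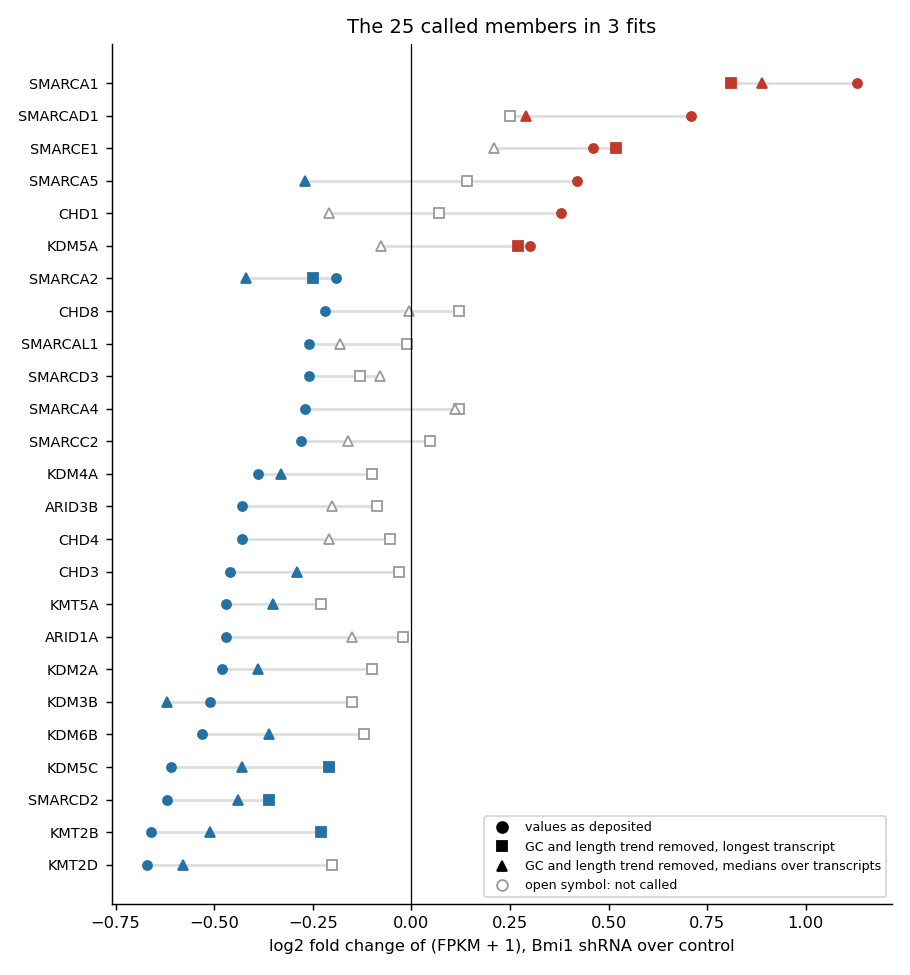
Log2 fold change of the 25 called genes from the values as deposited (circles) and with the GC and length trend removed on the longest coding transcript (squares) or on medians over transcripts (triangles); filled symbols passed the adjusted p of 0.05 in that fit. SMARCA1, KDM5C, KMT2B, SMARCA2 and SMARCD2 keep filled symbols on 1 side, and SMARCA5 has a filled symbol on each side of 0.

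Exchange between paralogs was read as a ratio of FPKM within a library, which does not depend on how libraries are scaled. Of 19 paralog pairs listed, 15 had both genes tested, and in 11 (73.3%) the ratios of the groups did not overlap; single rows of the table did not overlap in 65.4%. With 3 libraries a group the exact two-sided permutation p of each of these 11 was 0.1, the smallest possible, and 0.136 after adjustment over the 15. The KDM5A to KDM5C ratio was 0.0426, 0.0358 and 0.0408 in the controls and 0.0851, 0.0859 and 0.102 with Bmi1 shRNA. It was higher in each Bmi1 shRNA library, a log2 difference of 1.19. The CHD1 to CHD2 ratio went from 0.335 to 0.359 in the controls to between 0.606 and 0.680, a log2 difference of 0.90, and the KDM6A to KDM6B ratio from 0.602 to 0.770 to between 0.992 and 1.15, a difference of 0.63. In each of these the paralog poorer in GC gained, as it did in SMARCC1 to SMARCC2, KMT2A to KMT2B, KMT2C to KMT2D and KMT5B to KMT5C. The paralog richer in GC gained in KDM1A to KDM1B (50.8% and 41.6% GC), with a log2 difference of 0.33. It also gained in ARID5A to ARID5B (64.4% and 44.2%), with a difference of 0.86. The SMARCA5 to SMARCA1 ratio was the 1 that was lower without overlap, with a log2 difference of -0.96 between genes of similar GC content, 39.0% and 40.3%. In the first and second removal this difference was -0.67 and -1.16. It was 0.49 and 0.36 for KDM5A to KDM5C, -0.023 and 0.14 for CHD1 to CHD2, and 0.033 and 0.17 for KDM6A to KDM6B. The ARID3A to ARID3B ratio joins genes of 59.0% and 57.6% GC, and it rose from 0.458, 0.532 and 0.466 to 0.845, 0.766 and 0.706, with a log2 difference of 0.67 and of 0.52 and 0.28 in the removals. The SMARCA4 to SMARCA2 ratio was flat, at 4.12, 4.31 and 4.41 against 4.13, 4.41 and 4.49, and the KDM4A to KDM4B and CHD3 to CHD4 ratios also overlapped. In the plot of these ratios the ARID5A to ARID5B pair is spread by ARID5A of Bmi1 shRNA replicate 3.

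**Figure D5:**
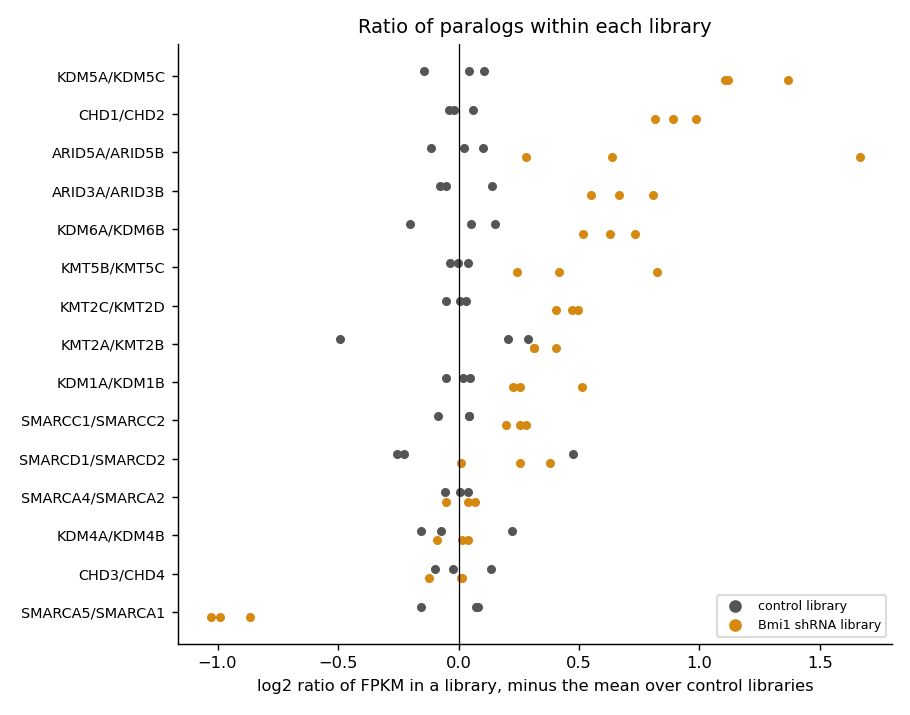
Log2 ratio of the FPKM of 2 paralogs in each library, minus the mean over the control libraries, for the 15 pairs with both genes tested (grey, control libraries; orange, Bmi1 shRNA libraries). In 10 pairs the Bmi1 shRNA libraries all lie above the controls, in SMARCA5/SMARCA1 all below, and in the other 4 the groups overlap.

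The partners of these enzymes were taken from 9 lists of 105 genes, of which 87 were tested. Of the 87, 14 rose (16.1%, against 28.6% of all tested rows) and 30 fell (34.5% against 28.5%), 50.6% in all against 57.1%, at a median log2 fold change of -0.15. BAZ1A and JMJD1C, both among the rises, averaged under 1 FPKM in the controls and passed the filter through the Bmi1 shRNA libraries. Of 15 partners of the H3K4 methyltransferases 2 rose and 7 fell. WDR5, the scaffold shared by all KMT2 complexes, fell from 30.1 ± 1.12 to 20.4 ± 1.81 FPKM (SD, 3 libraries each), and SETD1B, a sister catalytic subunit, from 3.19 ± 0.186 to 1.79 ± 0.132. The adaptor DPY30 rose from 12 ± 0.961 to 20.8 ± 1.75 FPKM and PSIP1, the tether of menin and KMT2A, from 5.74 ± 0.109 to 9.86 ± 0.589. WDR5 and PSIP1 were called the same way in both removals. SETD1B and DPY30 were not called in the first, at -0.15 and -0.07, and were called as on the deposited values in the second, at -0.21 and 0.70.

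Of 14 further BAF and PBAF subunits 3 rose and 1 fell. ACTL6A, the actin-related subunit of dividing cells, rose from 13.9 ± 0.469 to 25 ± 0.472 FPKM, and BCL7C from 8.61 ± 0.892 to 13.0 ± 1.53. BICRAL, a subunit of the non-canonical complex with BRD9, fell from 2.54 ± 0.249 to 1.65 ± 0.108 FPKM. All 3 were called the same way in both removals, as was ACTB, an actin that is also a subunit, at 493 ± 14.3 and 561 ± 37.9 FPKM. ISWI partners gave 1 rise and 2 falls of 6 tested. BAZ1A, the ACF partner of SMARCA5, averaged 0.795 ± 0.0936 FPKM in the controls and 1.62 ± 0.0676 with Bmi1 shRNA, and was called higher in the first removal (0.34) and not in the second (-0.066). BAZ2A, the partner of SMARCA5 in the silencing complex of ribosomal genes, fell from 9.41 ± 0.716 to 5.69 ± 0.539 FPKM and was called lower in the second removal (-0.55) and not in the first (-0.22). POLE3, a histone-fold subunit of CHRAC, fell from 63.5 ± 1.49 to 49.4 ± 2.76 FPKM and was called lower in both.

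NuRD partners gave 1 rise and 4 falls of 12 tested. The deacetylase HDAC2 rose from 2.96 ± 0.0698 to 5.94 ± 0.242 FPKM, and the subunits MTA2 and GATAD2A fell from 41.2 ± 0.746 to 28.5 ± 1.51 and from 9.87 ± 0.677 to 5.29 ± 0.938, with all 3 called the same way in both removals. GATAD2B fell from 3.92 ± 0.177 to 3.04 ± 0.285 FPKM and was called in the second removal alone. CoREST partners of KDM1A gave 1 rise and 1 fall of 6. HMG20B was called higher in both removals (0.22 and 0.31), and GSE1 was called lower in the second (-0.49) and not in the first (-0.24).

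SIN3 partners of ARID4A and ARID4B gave 2 rises and 3 falls of 10. SAP30 rose from 8.15 ± 0.509 to 14.6 ± 1.20 FPKM and SUDS3 fell from 5.32 ± 0.277 to 3.34 ± 0.231, and both were called the same way in both removals. SAP18 rose from 27.3 ± 1.14 to 38.9 ± 2.02 FPKM and SAP130 fell from 5.91 ± 0.133 to 4.47 ± 0.236, and neither was called in either removal. Other JmjC proteins gave 2 rises (JMJD1C and RIOX2) and 4 falls of 7. PHF2 was called lower in both removals, PHF8 lower in the second, JMJD1C higher in the first and RIOX2 in neither.

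Other histone methyltransferases gave 2 rises and 5 falls of 13. SUV39H2, an H3K9 methyltransferase, rose from 1.20 ± 0.128 to 2.57 ± 0.181 FPKM and was called higher in both removals. SETD7 was called lower in both, and SETDB1 and DOT1L in the second alone. Other remodelling ATPases gave 0 rises and 3 falls of 4. EP400, SRCAP and INO80 fell from 3.10, 5.84 and 3.05 FPKM to 1.65, 3.43 and 2.10. None was called in the first removal, and EP400 (-0.28) and INO80 (-0.30) were called lower in the second.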

How the data were processed

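Poly(A) RNA of 6 QBC-939 libraries was measured as FPKM by the authors, and their deposited table was used as it stands. The tools HISAT2 2.0, StringTie 1.3.0 and Bowtie 0.12.2 are listed, without their roles, in the submitters' processing notes. Those notes name a mouse build although the labels give human cells, so the build of the values is not settled, and coordinates, transcript GC content and transcript length were taken by symbol from GENCODE 29 (GRCh38). The design text speaks of siRNA for the control and the labels of shRNA, and the extraction protocol names adipose material, which leaves its library details unsettled. Read counts were not recovered, so no count test was run, and FPKM cannot show a change in total mRNA per cell.

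Tests used limma 3.58.1 in R 4.3.3 with a trend in the variance on log2(FPKM + 1), a pseudocount of 1 that understates the change of low genes, over the 11016 rows that averaged 1 FPKM or more and with group as the sole term. P-values were adjusted by the Benjamini-Hochberg method over all of them. Ratios of means are on the FPKM scale. The trend with GC content and log2 length was removed with natural splines of 5 degrees of freedom each over 10225 rows with a transcript. The second removal, with medians over transcripts, was chosen after seeing the data. The members, families, partner lists, paralog pairs and markers were chosen with earlier results of these data known, so no list is independent support. Values were given in full for called genes with a log2 fold change of 0.5 or more in size, and further members and promoters were chosen after their values were seen. Up to 4 partners a list were named, by smallest p. Paralog ratios used FPKM without a pseudocount, in scipy 1.17.1. The fit on the deposited values and the first removal were tested on simulated data, with changes placed only in rows of higher level. The second removal, the replicate block and changes of low genes were not tested in this way. Alternatives were another pseudocount, filter, scaling, variance prior, a replicate block and each library left out.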

Additional observations from a re-analysis of the deposited data

How the results depend on the processing

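The fall of BMI1 kept its call under every alternative in which it was tested (it averages under 5 FPKM), at log2 fold changes from -1.97 to -1.22. Of the 25 called genes, 18 kept their calls without each library in turn and under every other alternative in which they were tested, trend removal aside. The other 7 (CHD8, KDM5A, SMARCA2, SMARCA4, SMARCC2, SMARCD3 and SMARCAL1) lost theirs with a library left out and also with no filter on low values, at adjusted p from 0.0621 to 0.106. How many of all called rows of the table kept their calls in this way was not counted. With a library left out, the chromatin genes called ranged from 18 to 27 of 44 (higher 5 to 7, lower 13 to 21). In the same fits the rows called ranged from 5226 to 6122 of all 11016 tested.

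A mean of at least 5 FPKM left 14 chromatin genes, 5641 rows and 44 partners tested. Of these, 11 chromatin genes were called (1 higher, 10 lower), 3478 rows (1631 higher, 1847 lower) and 23 partners (8 higher, 15 lower). With the GC and length trend removed, 13 chromatin genes were called (5 lower), 4055 rows (1957 higher) and 25 partners (12 lower). On medians over transcripts 3 chromatin genes were higher and 16 lower. The cause was not tested.

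Same-numbered libraries did not deviate together (r of 0.0037, -0.0791 and -0.0234), and no control library correlated best with its own number. Values this small cannot show whether same-numbered libraries were handled together. The replicate block gave 20 of 44 chromatin genes (6 higher, 14 lower) and 5658 of 11016 rows (2870 higher, 2788 lower). The replicate block with the trend removed gave 10 (5 lower), 3140 rows (1572 higher, 1568 lower) and 22 partners (10 lower).

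With the trend removed, with or without the replicate block, these log2 fold changes changed sign: ARID4B -0.0022, CHD2 0.092, CHD6 0.24, CHD8 0.12, KDM4B 0.19, KDM4C 0.085, KMT5B -0.026, KMT5C 0.025, SMARCA4 0.12, SMARCB1 0.31, SMARCC1 0.12 and SMARCC2 0.048. On medians over transcripts these did: CHD1 -0.21, SMARCA5 -0.27, KDM5A -0.077, KDM4B 0.14, KMT5B -0.10, SMARCA4 0.11 and SMARCB1 0.16. Scaled to one total ARID3A was at -0.034 and KDM1A at -0.0085, and ARID3A was at -0.046 after quantile normalization. With a library left out, log2 fold changes ranged from -0.011 to 0.11 for ARID3A, -0.11 to 0.065 for CHD6 and -0.11 to 0.029 for KDM6A, and paralog differences from -0.0065 to 0.057 for SMARCA4/SMARCA2 (-0.085 with a pseudocount of 1), -0.085 to 0.10 for KDM4A/KDM4B and -0.088 to 0.029 for CHD3/CHD4.

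Depth is unknown, so genes near 1 FPKM have no counting error attached.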

Other observations

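Rows left out by the naming rule include the antisense and divergent partners of members, chosen here after their values were seen. KMT2E-AS1, which starts beside KMT2E on the other strand, was at 7.18, 5.87 and 8.36 FPKM in the control libraries and at 11.8, 10.8 and 11.1 with Bmi1 shRNA. It was higher in every Bmi1 shRNA library and called (limma, adjusted p = 0.00517), while KMT2E itself was lower in all 3 and not called. KDM4A-AS1 was at 0.259, 0.200 and 0.230 FPKM against 0.523, 0.517 and 0.567, too low to be tested but without overlap, while KDM4A fell from 20.9 to 15.8 FPKM. SMARCA5-AS1 did not follow SMARCA5: it averaged 3.25 and 3.37 FPKM, with overlapping groups. Exons of each pair overlap by 143, 394 and 630 bases, and without the strand of counting reads of the overlaps cannot be told apart. KDM7A-DT, the divergent transcript of KDM7A, averaged 0.879 and 1.06 FPKM with overlapping groups, while KDM7A was higher in every Bmi1 shRNA library.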
